A study of Mus musculus with 6 samples.

Results

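Arterial endothelial cells line the vessels that carry blood from the right heart into the lung, and they formed the smallest of the endothelial groups compared here. Members were chosen by detected transcripts: a barcode with at least 500 genes and at most 10% mitochondrial UMIs had to hold at least 3 of the endothelial genes *Cdh5*, *Pecam1*, *Tie1*, *Cldn5*, and *Egfl7*, and at least 2 of *Gja5*, *Bmx*, and *Dkk2*. Barcodes with at least 3 of the aerocyte genes *Car4*, *Fibin*, *Emp2*, *Tbx2*, *Chst1*, and *Apln*, at least 2 of the venous genes *Selp*, *Bst1*, *Amigo2*, and *Lhx6*, at least 2 of the cell cycle genes *Mki67*, *Top2a*, and *Cenpf*, or at least 3 of the smooth muscle genes *Myh11*, *Cnn1*, *Acta2*, and *Lmod1* were dropped. Of 43545 barcodes, 38208 passed the quality limits, 31669 of these were endothelial, and 789 carried at least 2 of the arterial genes. The drops took 132 of the 789, of which 88 met the venous limit, 36 the aerocyte limit, 18 the cell cycle limit, and 6 the smooth muscle limit, some more than 1. This left 657 arterial cells, 281 from WT and 376 from TNF-Tg lungs, or 2.07% of the endothelial barcodes.

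The cells come from 6 single-cell RNA libraries of mouse lung, 1 for each of 2 genotypes at ages of 8, 14, and 20 weeks. TNF-Tg mice carry a human TNF transgene and develop inflammatory arthritis with pulmonary hypertension, and the controls were WT littermates. All mice were female, the lungs of 3 to 5 mice were pooled for a library, and live cells negative for CD45 and CD326 were sorted, so that leukocytes and epithelium had been depleted. Each genotype has 1 pool at each age and the single mice of a pool carry no label, so the 3 ages served as the replicates of a genotype, and p-values measure the spread between pools of different age. The mouse *Tnf* row held 1 UMI in the WT and 33 UMIs in the TNF-Tg arterial cells and was not shown to count the transgene, so that genotype could not be checked from it.

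Arterial endothelium is specified by Notch signaling under high flow. It keeps connexins and ephrin B2, which capillaries and veins have in smaller amounts, and more elastic matrix than capillaries. In pulmonary hypertension, the small arteries narrow as their wall thickens, and loss of BMP receptor signaling in the arterial endothelium is a known inherited cause of the disease. TNF acts on endothelium through its receptors and NF-kB, which turns on adhesion molecules, chemokines, and its own inhibitors.

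The arterial cells were 1.69, 1.6, and 1.73% of the endothelial barcodes in WT at 8, 14, and 20 weeks and 3.03, 1.68, and 2.78% in TNF-Tg. The exact binomial 95% intervals, which cover counting error, ran from 1.28 to 1.97% for the lowest library, WT at 14 weeks, and from 2.61 to 3.49% for the highest, TNF-Tg at 8 weeks. The TNF-Tg mean of 2.5 ± 0.716% (SD, n = 3) was 0.825 percentage points above the WT mean of 1.67 ± 0.0644% (two-sided exact permutation p = 0.3, with 0.1 the smallest p that 3 against 3 libraries allow), and the groups overlapped. With all 3 arterial genes required the shares were 0.13 to 0.187% in WT and 0.315 to 0.658% in TNF-Tg, and without the venous drop 1.75 to 1.86% in WT and 1.95 to 3.41% in TNF-Tg, without overlap in either case (exact permutation p = 0.1 for both). The rule counts detected genes, and TNF-Tg arterial cells had more UMIs, with medians of 11491 to 12014.5 against 6552.5 to 6837 in WT. With each barcode thinned to 2000 UMIs the shares were 0.727, 0.68, and 0.645% in WT and 0.637, 0.555, and 0.909% in TNF-Tg, a difference of 0.0162 points (exact permutation p = 1).

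The detected combinations of the 3 genes were not the same in the genotypes. Of the 281 WT members, 236 held *Gja5* and *Bmx* without *Dkk2*, 8 *Gja5* and *Dkk2*, 12 *Bmx* and *Dkk2*, and 25 all 3 genes. Of the 376 TNF-Tg members, the same groups held 198, 26, 76, and 76 cells. *Dkk2*, an antagonist of Wnt signaling, was detected in 14.4, 16.5, and 17% of WT arterial cells and in 38.5, 56.2, and 55.3% of TNF-Tg arterial cells at 8, 14, and 20 weeks. After thinning to 2000 UMIs per cell the values were 6.74, 9.41, and 10.5% in WT and 20.9, 26.2, and 32.5% in TNF-Tg. The thinned cells had been chosen at full depth by a rule that counts *Dkk2*, so these values are not independent of that choice. Barcodes with at least 3 fibroblast markers and none of the endothelial genes of the rule were taken for comparison. In them *Dkk2* was detected in 1.11, 1.48, and 1.95% in WT and 4.74, 3.87, and 7.13% in TNF-Tg, at medians of 6872 to 13642.5 UMIs. *Gja5*, *Bmx*, and *Dkk2* are genes of the rule, and their values are a description without a test.

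**Figure D1:**
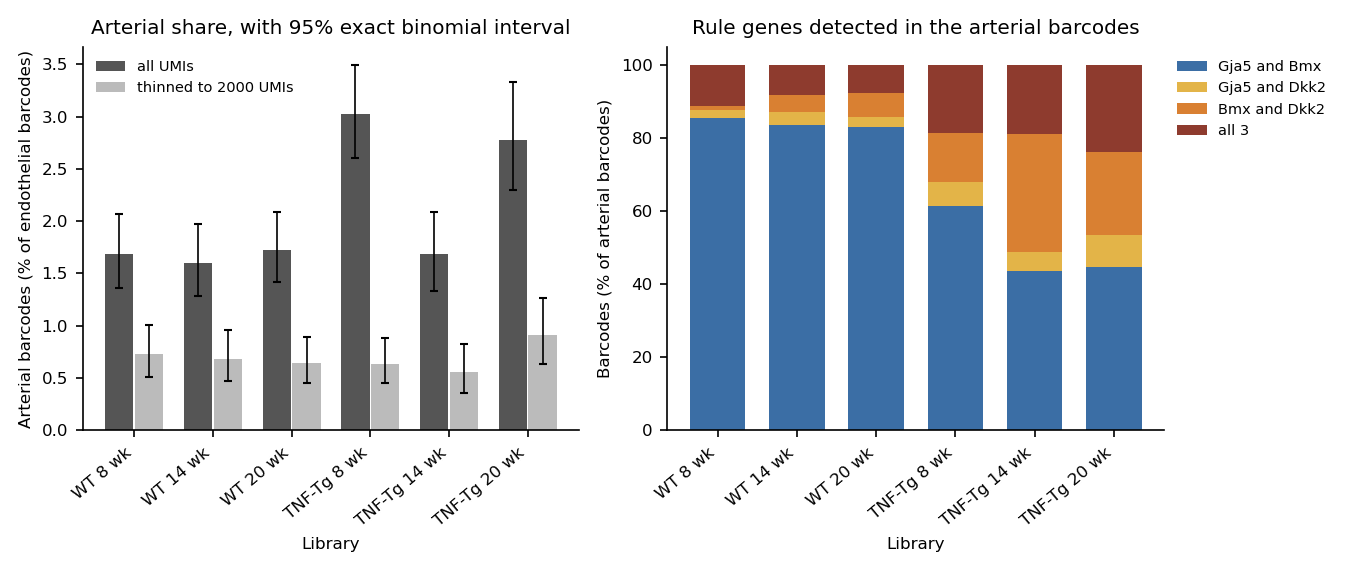
Left, arterial barcodes as a percentage of endothelial barcodes in each of the 6 libraries, with all UMIs (dark bars) and after thinning to 2000 UMIs per barcode (light bars), with exact binomial 95% intervals. Right, the arterial barcodes of each library divided by which of *Gja5*, *Bmx*, and *Dkk2* were detected: cells with *Gja5* and *Bmx* alone made up 83.0 to 85.6% in WT and 43.8 to 61.5% in TNF-Tg.

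*Gja5*, which encodes the arterial gap junction protein connexin 40, had a mean level of 370.4 CPM (UMIs scaled to a sum of 1000000 over the arterial cells of a library) in WT and 168 CPM in TNF-Tg. The tyrosine kinase gene *Bmx* stood at 329 and 241 CPM, and *Dkk2* at 57.3 and 167 CPM. Just outside the rule, the 1908 endothelial barcodes with 1 of the 3 genes held *Gja5* at 103 and 44.4 CPM, *Bmx* at 157 and 97.6 CPM, and *Dkk2* at 3.58 and 37.4 CPM. Of 12 further arterial genes, 11 had a higher mean in WT arterial cells than in the 21010 endothelial barcodes without a UMI of the 3 rule genes, called capillary-side here, which had also passed the 4 drops. The matrix Gla protein gene *Mgp* was at 2184 against 237 CPM, the matrix gene *Fbln2* at 312 against 18.3 CPM, the transcription factor gene *Mecom* at 291 against 22.7 CPM, and *Efnb2*, the ephrin B2 gene, at 1142 against 423 CPM. *Sox17*, a transcription factor gene of arterial specification, went the other way in WT, at 114 CPM in arterial and 297 CPM in capillary-side cells.

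The libraries held 33680696 to 39839916 UMIs in WT and 64475410 to 72655387 in TNF-Tg, and the arterial sums 659259 to 776436 and 1164743 to 2275978 UMIs. Pairs of libraries shared 3 to 17 barcode sequences, none of them arterial in both. Summed markers of other cells in the arterial sums, over each whole list, moved with single libraries. The 6 fibroblast markers were at 125, 27.3, and 10.3 CPM in WT against 9.67, 520.3, and 631 CPM in TNF-Tg, the 5 erythroid and platelet markers at 198, 156, and 18.0 CPM in WT against 4624, 12, and 62.2 CPM in TNF-Tg, and the 6 immune markers at 2.92, 1.52, and 1.29 CPM in WT against 1.76, 6.01, and 452 CPM in TNF-Tg, with *Cd3e* without a UMI. Smooth muscle markers ranged from 156 to 257 CPM in WT against 76.5 to 299 CPM in TNF-Tg, lymphatic markers from 0 to 1.52 CPM in WT against 8.59 to 67.9 CPM in TNF-Tg, pericyte markers from 3.03 to 11.7 CPM in WT against 4.83 to 10.3 CPM in TNF-Tg, and epithelial markers from 5.15 to 40.8 CPM in WT against 17.1 to 48.9 CPM in TNF-Tg, with *Epcam* without a UMI. Markers of capillary cells ranged from 2246 to 2446 CPM in WT against 439 to 916 CPM in TNF-Tg, of aerocytes from 284 to 329 CPM in WT against 339.6 to 434 CPM in TNF-Tg, and of veins from 2989.7 to 3438 CPM in WT against 671 to 900.3 CPM in TNF-Tg. Over the 6 libraries the capillary markers summed to 1472 to 3452 CPM in capillary-side cells. In arterial cells 2 of these 4 markers had a higher mean in TNF-Tg. Without *Plvap* their sum ran from 805 to 825 CPM in WT against 240 to 561 CPM in TNF-Tg. *Vwf* made up most of the venous sum, and the sum of the other 5 venous markers had the opposite order, from 173 to 194 CPM in WT against 203 to 288 CPM in TNF-Tg. Removing the 23 arterial cells with at least 2 fibroblast markers and the 3 with at least 2 immune markers left 1234 genes called between the genotypes, against 1187 with them.

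Of 8329 genes tested between 3 TNF-Tg and 3 WT arterial sums, 1187 passed an edgeR FDR of 0.05 (14.3%). Of these, 564 were higher in TNF-Tg (6.77% of the genes tested) and 623 were lower (7.48%). The same comparison called 39.1% of 13433 genes in capillary-side cells and 13.6% of 9931 genes in 1501 venous-side cells, which have at least 2 of the venous genes and fewer than 2 of the arterial ones. The groups did not overlap for 1178 of the 1187 called genes, nor for 33.2% of all genes tested. Single libraries moved the count by more than 1.5 times: it was 588 without WT at 20 weeks, 621 without WT at 14 weeks, 710 without WT at 8 weeks, and 790 without TNF-Tg at 14 weeks. No called gene that could be tested changed direction, which is all but given where the groups do not overlap. Among cells with *Gja5* and *Bmx* and no *Dkk2* UMI, a cut made at unequal depth in the genotypes, 1090 of the called genes were tested, none changed direction, and 713 were still called. Scaling to total UMIs left every called gene in its direction but called 701 higher and 526 lower, with the median of all genes moved from -0.0034 to 0.063 on the log2 scale.

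The genes of largest increase were close to absent from WT arterial cells. *Ccdc184*, which encodes a coiled-coil protein, had no UMI in WT and 250 UMIs in TNF-Tg (at least 35.4-fold higher against 3 UMIs over the WT group, edgeR FDR 0.000481). *Prnd*, which encodes the prion-like protein doppel (chr2:131950861-131956130, plus strand, GRCm38), was at 1.46, 0, and 0 CPM in WT against 123, 72.1, and 164 CPM in TNF-Tg at 8, 14, and 20 weeks, the order used for all values here. Its 1 WT UMI against 621 TNF-Tg UMIs gave a ratio of 263-fold (95% counting interval 47.1 to 10423), with an edgeR FDR of 7.64e-05. The matricellular protein gene *Ccn3* (chr15:54745702-54754039, plus strand) was at 1.46, 0, and 0 CPM in WT against 90.5, 98.7, and 119 CPM in TNF-Tg, 215-fold (95% counting interval 38.4 to 8513) higher (edgeR FDR 1.72e-05). The cell cycle regulator gene *Rgcc* was 69.9-fold (95% counting interval 23.8 to 339.9) higher and *Ltc4s*, which encodes leukotriene C4 synthase, 56.0-fold (95% counting interval 15.4 to 465) higher (edgeR FDR 0.0028 and 0.000125). The lowest TNF-Tg value lay above the highest WT value for each of these genes. Each was also called higher in TNF-Tg in capillary-side cells (edgeR FDR 0.000618 to 0.00631). Their means there ran from 0.94 to 42.9 CPM in WT and from 24.4 to 817 CPM in TNF-Tg.

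The peptidase inhibitor gene *Pi16* was at 13.1, 1.52, and 9.02 CPM in WT against 161, 349, and 276 CPM in TNF-Tg (4.94 ± 0.45, edgeR FDR 9.33e-05, given here and below as the log2 fold change with its standard error), with all 3 TNF-Tg libraries above WT and the lowest at 8 weeks. Other genes of large increase were *Nebl*, an actin-binding protein gene (4.66 ± 0.45), *Apba1*, an adaptor of the amyloid precursor protein (4.47 ± 0.50), *S100a4*, a calcium-binding protein gene (4.41 ± 0.52), the matrix gene *Vwa1* (4.26 ± 0.75), and the semaphorin gene *Sema5a* (4.06 ± 0.51), at edgeR FDR of 0.000125 to 0.0041. *S100a4* is also expressed by fibroblasts and leukocytes, and it stood at 42.3, 9.10, and 12.9 CPM in WT against 236, 497, and 695 CPM in TNF-Tg, above WT in each TNF-Tg library. In TNF-Tg at 8, 14, and 20 weeks the fibroblast markers summed to 9.67, 520.3, and 631 CPM and the immune markers to 1.76, 6.01, and 452 CPM, and their part in *S100a4* was not tested.

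Of the 12 genes named as lower, *Hsd11b2* and *Lyve1* had the largest fitted decrease. *Lyve1*, which encodes a hyaluronan receptor best known from lymphatic vessels (chr7:110850607-110863239, minus strand), fell from 1068, 1467, and 1231 CPM in WT to 41.7, 28.3, and 14.7 CPM in TNF-Tg (-5.51 ± 0.30, edgeR FDR 7.36e-06). The lymphatic markers *Prox1*, *Mmrn1*, *Ccl21a*, and *Pdpn* summed to at most 1.52 CPM in the same WT cells. *Hsd11b2*, whose product inactivates glucocorticoids, was at 49.6, 152, and 25.8 CPM in WT against 3.08, 0, and 0 CPM in TNF-Tg (-5.73 ± 0.86, edgeR FDR 0.00181). *Lepr*, the leptin receptor gene, was at 188, 119.8, and 158 CPM in WT against 30.8, 0.859, and 5.13 CPM in TNF-Tg (-3.51 ± 0.57, edgeR FDR 0.0028). The other genes named by the same rule were *Glb1l2* (-4.07 ± 0.52), the atypical chemokine receptor gene *Gpr182* (-4.02 ± 0.48), the cytochrome P450 gene *Cyp4b1* (-3.67 ± 0.23), the sulfotransferase gene *Sult1a1* (-3.60 ± 0.29), the phosphatase subunit gene *Ppp2r2c* (-3.53 ± 0.70), the matrix gene *Abi3bp* (-3.51 ± 0.38), *Gm35533* (-3.47 ± 0.71), the olfactomedin gene *Olfm2* (-3.36 ± 0.87), and *Samd5* (-3.24 ± 0.28). Without WT at 14 weeks *Ppp2r2c* and *Gm35533* were no longer called (edgeR FDR 0.0529 and 0.0687, log2 fold changes -3.43 and -3.26), nor was *Olfm2* without TNF-Tg at 14 weeks or any 1 WT library (edgeR FDR 0.0602 to 0.113).

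**Figure D2:**
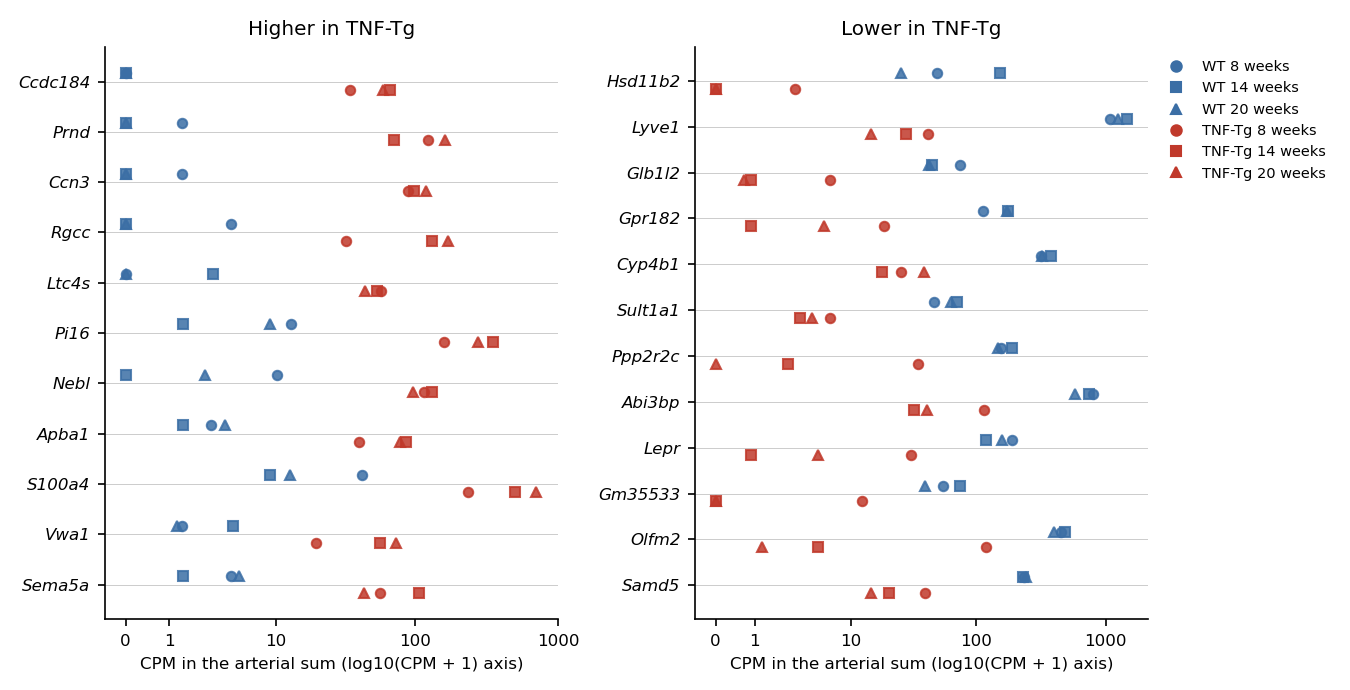
Levels of 11 of the genes with the largest increase (left) and the 12 with the largest decrease (right) in TNF-Tg arterial cells, in CPM of the arterial sum on a log10(CPM + 1) axis, 1 point per library, with color for genotype and shape for age. For each gene the 3 TNF-Tg points lie on 1 side of the 3 WT points, and *Prnd* and *Ccn3* each had 1 UMI in the 3 WT libraries together.

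Gene groups are described by their counts of called genes beside the 14.3% of all genes tested, and by their median log2 fold change beside -0.0034 for all genes. Of 18 arterial identity genes tested, 5 rose and 4 fell (median -0.23), with movement in both directions. *Sox17* (chr1:4490931-4497354, minus strand) rose from 118, 114, and 109 CPM in WT to 461, 586, and 529 CPM in TNF-Tg (2.14 ± 0.14, edgeR FDR 1.72e-05). *Cxcl12*, the chemokine that is the ligand of CXCR4, was at 1511, 1514, and 2040.1 CPM in WT against 3642, 3954, and 2940.1 CPM in TNF-Tg (0.99 ± 0.14, edgeR FDR 0.00141). The neuronal growth gene *Stmn2* rose from 421 ± 94.1 to 1048 ± 176 CPM and the netrin receptor gene *Unc5b* from 50.9 ± 12.5 to 165 ± 19.7 CPM, each as the WT and TNF-Tg mean and SD of 3 libraries (edgeR FDR 0.00146 and 0.000482). *Efnb2* was at 1157, 1071, and 1196 CPM in WT against 747, 499.7, and 477 CPM in TNF-Tg (-1.06 ± 0.16, edgeR FDR 0.00183), and the semaphorin gene *Sema3g* fell from 671 ± 71.4 to 501 ± 36.4 CPM (edgeR FDR 0.0211). The connexin 37 gene *Gja4* and the *Mgp* gene, by contrast, overlapped between the genotypes, at 776 ± 53.1 CPM in WT against 674 ± 319 CPM in TNF-Tg and at 2184 ± 865 CPM in WT against 1758 ± 860.4 CPM in TNF-Tg (edgeR FDR 0.543 for both).

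Of 16 Notch genes tested, 5 fell and 1 rose (median -0.28). Among the ligands, *Dll4*, the main arterial Delta ligand, was at 436, 364, and 471 CPM in WT against 221, 111, and 155 CPM in TNF-Tg (-1.45 ± 0.22, edgeR FDR 0.00185), and *Dll1* fell from 52.9 ± 7.75 to 28.2 ± 6.61 CPM (edgeR FDR 0.0179). *Jag2*, a ligand of the Jagged family, went the other way, at 53.9, 31.9, and 39.9 CPM in WT against 158, 201, and 209 CPM in TNF-Tg (2.10 ± 0.21, edgeR FDR 0.000152), while *Jag1* was at 79.4 ± 23.7 CPM in WT against 134 ± 28.5 CPM in TNF-Tg and was not called (edgeR FDR 0.0826). Of the receptors tested, *Notch1* fell from 497 ± 17 to 218 ± 37.0 CPM (-1.25 ± 0.14, edgeR FDR 0.000298) and *Notch4* was not called (edgeR FDR 0.293). Of 5 targets tested, the feedback gene *Nrarp* fell from 203 ± 28.0 to 44.1 ± 9.71 CPM (-2.26 ± 0.19, edgeR FDR 5.95e-05) as did *Efnb2*, while *Hey1*, *Hey2*, and *Hes1* were not called, at log2 fold changes of -0.39 ± 0.13, 0.08 ± 0.27, and -0.26 ± 0.14.

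BMP and TGF-beta genes numbered 31 tested, of which 5 rose and 8 fell (median -0.09), and 4 of the 8 were receptors. *Bmpr2*, the BMP type 2 receptor gene, fell from 1401, 1403, and 1373 CPM in WT to 536, 637, and 610.2 CPM in TNF-Tg (-1.30 ± 0.11, edgeR FDR 5.85e-05), a difference far larger than the spread within a genotype. Its partner receptor gene *Acvrl1* (ALK1) was at 893, 1122, and 974 CPM in WT against 481, 476, and 452 CPM in TNF-Tg (-1.15 ± 0.11, edgeR FDR 0.000152). *Acvr1* fell from 39.0 ± 3.77 to 20.0 ± 2.89 CPM and the coreceptor gene *Tgfbr3* from 90.2 ± 9.04 to 26.3 ± 6.22 CPM (edgeR FDR 0.0111 and 0.000301), while the coreceptor endoglin (*Eng*) was at 1332 ± 151 CPM in WT against 1352 ± 338 CPM in TNF-Tg (edgeR FDR 0.907). The TGF-beta receptor gene *Tgfbr2* was higher by edgeR, from 64.9 ± 14.4 to 112 ± 19.2 CPM (edgeR FDR 0.044), and was not called by DESeq2. Of 5 ligands tested, *Tgfb2* rose from 26.5 ± 23.3 to 198 ± 18.4 CPM and *Bmp2* from 13.8 ± 8.03 to 41.2 ± 14.0 CPM (edgeR FDR 0.00116 and 0.0338). Neither edgeR, at adjusted or unadjusted p, nor DESeq2 passed any of 4 SMAD genes tested, and the target genes *Id2* and *Smad6* fell (-0.75 ± 0.15 and -0.98 ± 0.15). *Id1*, a direct BMP target, was at 1064 ± 222 CPM in WT against 834 ± 74.8 CPM in TNF-Tg (edgeR FDR 0.0908).

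Of 22 NF-kB and adhesion genes tested, 7 rose and 1 fell (median 0.34), and 6 of the 7 encode a subunit or regulators of the pathway. *Tnfaip3*, which encodes the inhibitor A20 (chr10:19000910-19015657, minus strand), was at 8.75, 13.7, and 16.7 CPM in WT against 96.7, 66.1, and 82.7 CPM in TNF-Tg (2.57 ± 0.26, edgeR FDR 0.000168). Its partner *Tnip1* was at 18.9, 42.5, and 21.9 CPM in WT against 107, 70.4, and 98.7 CPM in TNF-Tg (1.68 ± 0.28, edgeR FDR 0.00307), and the inhibitor of apoptosis gene *Birc3* rose from 19.6 ± 5.85 to 44.0 ± 5.19 CPM (edgeR FDR 0.0152). The inhibitor genes *Nfkbia* and *Nfkbie* rose from 389 ± 4.72 to 683 ± 132 CPM and from 9.81 ± 1.55 to 36.8 ± 4.34 CPM, and the subunit gene *Nfkb2* from 20.1 ± 5.05 to 52.8 ± 3.67 CPM (edgeR FDR 0.00556, 0.00134, and 0.00315), while *Nfkb1* and *Rela* were not called (-0.11 ± 0.16 and 0.40 ± 0.16). Of the adhesion molecules, *Vcam1* rose from 171, 231, and 277 CPM to 625, 624, and 698 CPM (1.45 ± 0.17, edgeR FDR 0.000386), *Icam2* fell from 963 ± 97.9 to 638 ± 97.2 CPM (edgeR FDR 0.00682), and *Icam1* was at 156 ± 12.3 CPM in WT against 176 ± 9.90 CPM in TNF-Tg (edgeR FDR 0.692). The receptor genes *Tnfrsf1a* and *Tnfrsf1b* were not called, at log2 fold changes of -0.40 ± 0.13 and 0.18 ± 0.43, and of 3 TNF receptor genes tested 2 passed an unadjusted p of 0.05 and none DESeq2.

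Promoter sequences from RefSeq (GRCm38.p6, 250 bases before to 50 after a gene start) were available for 6 of the 7 risen NF-kB genes, and 5 of these, *Nfkb2*, *Nfkbia*, *Nfkbie*, *Tnfaip3*, and *Tnip1*, hold the kappa-B motif on either strand in at least 1 promoter, as do 5.14% of 27018 genes in the table (4.51% of 32841 promoters). *Nfkb2* has 3 promoters in the table, all with a match, and *Tnfaip3* has 2, of which the one at chr10:19011914-19012213 has none. The promoters of *Nfkbia* (chr12:55492598-55492897, minus strand) and *Tnfaip3* (chr10:19015361-19015660, minus strand) are shown 5′ to 3′ because these genes are the best known inhibitors of the pathway, with the matches in capitals. A match describes the letters and is not a measured binding site. The list holds known genes of the pathway, inhibitors that NF-kB turns on among them, so a high share was likely before these data. Listed genes that did not rise were not searched, so the matches say nothing about the rise.
Nfkbia: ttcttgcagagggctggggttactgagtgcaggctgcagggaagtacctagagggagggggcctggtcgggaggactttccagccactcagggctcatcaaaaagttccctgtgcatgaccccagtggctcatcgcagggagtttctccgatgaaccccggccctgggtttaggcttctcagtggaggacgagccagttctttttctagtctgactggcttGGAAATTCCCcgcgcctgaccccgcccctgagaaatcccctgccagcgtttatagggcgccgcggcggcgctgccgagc
Tnfaip3: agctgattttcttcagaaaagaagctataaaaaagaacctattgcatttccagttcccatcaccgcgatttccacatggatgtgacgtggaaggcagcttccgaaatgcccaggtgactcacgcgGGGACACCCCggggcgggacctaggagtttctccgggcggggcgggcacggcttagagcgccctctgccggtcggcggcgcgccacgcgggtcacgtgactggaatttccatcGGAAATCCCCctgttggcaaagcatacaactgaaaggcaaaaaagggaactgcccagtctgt

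Of 8 chemokine and cytokine receptor genes tested, 3 rose and 1 fell (median 0.44). Beside *Cxcl12*, the membrane-bound chemokines *Cxcl16* and *Cx3cl1* rose from 113 ± 5.34 to 189.6 ± 35.3 CPM and from 81.8 ± 12.9 to 130.2 ± 15.1 CPM (edgeR FDR 0.0207 and 0.0337). *Il6st*, the shared receptor subunit of interleukin 6 family cytokines, fell from 242 ± 11.3 to 148 ± 27.7 CPM (edgeR FDR 0.00965). The monocyte chemokine gene *Ccl2* had no UMI in WT and 246 UMIs in TNF-Tg arterial cells, at 3.08, 11.2, and 145 CPM. It did not pass the filter on low counts and has no test, and it was highest where the fibroblast and immune marker sums were highest, whose part in it was not tested.

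Among 33 interferon and antigen presentation genes tested, 4 rose and 9 fell (median -0.43), and the 4 were all MHC class II genes. *Cd74*, the class II invariant chain gene, rose from 166, 174, and 133 CPM in WT to 1252, 1922, and 2104 CPM in TNF-Tg (3.42 ± 0.21, edgeR FDR 1.72e-05). *H2-Aa* was at 65.6, 50.1, and 43.8 CPM in WT against 232, 385, and 533 CPM in TNF-Tg (2.79 ± 0.30, edgeR FDR 0.000284), and *H2-Eb1* at 36.4, 66.7, and 55.4 CPM in WT against 199, 378, and 492 CPM in TNF-Tg (2.69 ± 0.34, edgeR FDR 0.000609). *H2-Ab1* rose from 126 ± 3.85 to 512 ± 122 CPM (1.96 ± 0.19, edgeR FDR 0.000132), while their transactivator gene *Ciita* was at 10.5 ± 7.04 CPM in WT against 30.2 ± 17 CPM in TNF-Tg with overlapping groups (edgeR FDR 0.154). Leukocytes also express class II genes, and the immune markers summed to 1.76, 6.01, and 452 CPM in TNF-Tg at 8, 14, and 20 weeks, where *Cd74* was at 1252, 1922, and 2104 CPM. The part of leukocyte RNA in the class II difference was not tested. Of 13 interferon-stimulated genes none rose by edgeR, at adjusted or unadjusted p, or by DESeq2, and 5 fell by edgeR and 4 by DESeq2, with *Ifitm2* at 1651 ± 66.2 CPM in WT against 1175 ± 209 CPM in TNF-Tg, *Gbp2* at 98.3 ± 15.8 CPM in WT against 54.5 ± 6.53 CPM in TNF-Tg, and *Bst2* at 1225 ± 66.5 CPM in WT against 693 ± 311 CPM in TNF-Tg (edgeR FDR 0.0119, 0.00556, and 0.0302). Of 8 class I genes, *Tapbp* and *Psmb9* fell (-0.63 ± 0.13 and -0.79 ± 0.17), and *B2m* was at 2279 ± 121 CPM in WT against 2586 ± 413 CPM in TNF-Tg (edgeR FDR 0.587).

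RefSeq promoters were available for *H2-Aa* and *H2-Eb1* of the 4 risen class II genes. Both hold CCAAT, which class II promoters carry as part of the Y box, on either strand (CCAAT or ATTGG), as do 37.4% of 32841 promoters. They are shown 5′ to 3′ with the matches in capitals, *H2-Aa* at chr17:34287774-34288073 on the minus strand and *H2-Eb1* at chr17:34305617-34305916 on the plus strand, since these genes carried the largest rises of their group after *Cd74*.
H2-Aa: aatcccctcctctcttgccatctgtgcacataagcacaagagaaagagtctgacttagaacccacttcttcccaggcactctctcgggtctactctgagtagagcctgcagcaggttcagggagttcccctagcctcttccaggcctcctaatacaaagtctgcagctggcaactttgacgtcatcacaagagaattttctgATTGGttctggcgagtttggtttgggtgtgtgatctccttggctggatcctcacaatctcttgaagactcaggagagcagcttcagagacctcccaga
H2-Eb1: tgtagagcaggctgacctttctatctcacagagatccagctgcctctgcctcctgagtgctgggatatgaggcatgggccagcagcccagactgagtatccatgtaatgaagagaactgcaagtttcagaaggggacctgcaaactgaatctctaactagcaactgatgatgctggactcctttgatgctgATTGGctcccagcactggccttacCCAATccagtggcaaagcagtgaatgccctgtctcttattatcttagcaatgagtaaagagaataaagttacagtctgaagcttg

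Basement membrane genes rose in 10 and fell in 2 of 22 tested (median 0.77). The collagen IV genes *Col4a1* and *Col4a2*, which form the sheet under the endothelium, were at 293, 311, and 304 CPM in WT against 782, 1197, and 1428 CPM in TNF-Tg and at 162, 146, and 113 CPM in WT against 447, 679, and 841 CPM in TNF-Tg (edgeR FDR 0.000277 and 0.000278). *Hspg2*, the perlecan gene, was at 36.4, 22.8, and 21.9 CPM in WT against 218, 354, and 453 CPM in TNF-Tg (3.59 ± 0.31, edgeR FDR 8.13e-05), fibronectin (*Fn1*) at 141, 54.6, and 100.5 CPM in WT against 613, 1203, and 1260.1 CPM in TNF-Tg (3.30 ± 0.35, edgeR FDR 0.000227), and *Igfbp7* at 349.8, 331, and 337 CPM in WT against 2710.0, 2929, and 3575 CPM in TNF-Tg (3.11 ± 0.13, edgeR FDR 1.5e-06). *Sparc*, *Col18a1*, *Col5a2*, *Lama4*, and *Lamc1* also rose, by log2 fold changes of 0.68 to 3.25. The integrin genes *Itga1* and *Itga6*, receptors for collagen and laminin, fell from 767 ± 43.9 to 321 ± 77.0 CPM and from 549 ± 50.6 to 317 ± 90.9 CPM (edgeR FDR 0.000441 and 0.011). The fibroblast markers were above WT in TNF-Tg at 14 and 20 weeks but not at 8 weeks, when *Fn1* was at 613 and *Hspg2* at 218 CPM. Their part in the difference of these genes was not tested.

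Of 8 genes of elastic fibre proteins, which give arteries their recoil, edgeR called none, with 3 at an unadjusted p under 0.05 and 1 called by DESeq2. *Eln*, the elastin gene, was at 296, 94.0, and 124 CPM in WT against 210.5, 919, and 455 CPM in TNF-Tg (1.55 ± 0.51, edgeR FDR 0.0724), with TNF-Tg at 8 weeks inside the WT range, and *Fbln5*, needed for elastic fibre assembly, at 206, 100.1, and 167 CPM in WT against 235, 373, and 271 CPM in TNF-Tg (0.82 ± 0.25, edgeR FDR 0.0537), with groups that did not overlap. Among proteases and their inhibitors 4 of 6 rose: *Timp1*, *Timp3*, *Mmp14*, and *Adamts9*, at 4.73 ± 2.25 CPM in WT against 19.9 ± 8.53 CPM in TNF-Tg, 529 ± 75.8 CPM in WT against 1041 ± 276 CPM in TNF-Tg, 25.9 ± 1.27 CPM in WT against 76.4 ± 18.0 CPM in TNF-Tg, and 18.3 ± 4.52 CPM in WT against 40.8 ± 9.41 CPM in TNF-Tg (edgeR FDR 0.0299, 0.00902, 0.00197, and 0.031). Of 9 genes linked to endothelial-to-mesenchymal transition, *Vim*, *S100a4*, and *Fn1* rose and *Zeb2* fell, the last by edgeR but not by DESeq2. The smooth muscle gene *Tagln* was at 94.7, 42.5, and 79.9 CPM in WT against 6.59, 141, and 222 CPM in TNF-Tg (edgeR FDR 0.662). *Acta2*, a gene of the rule and so without a test, overlapped between the genotypes. It was at 32.1, 19.7, and 20.6 CPM in WT against 23.3, 355, and 168 CPM in TNF-Tg.

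**Figure D3:**
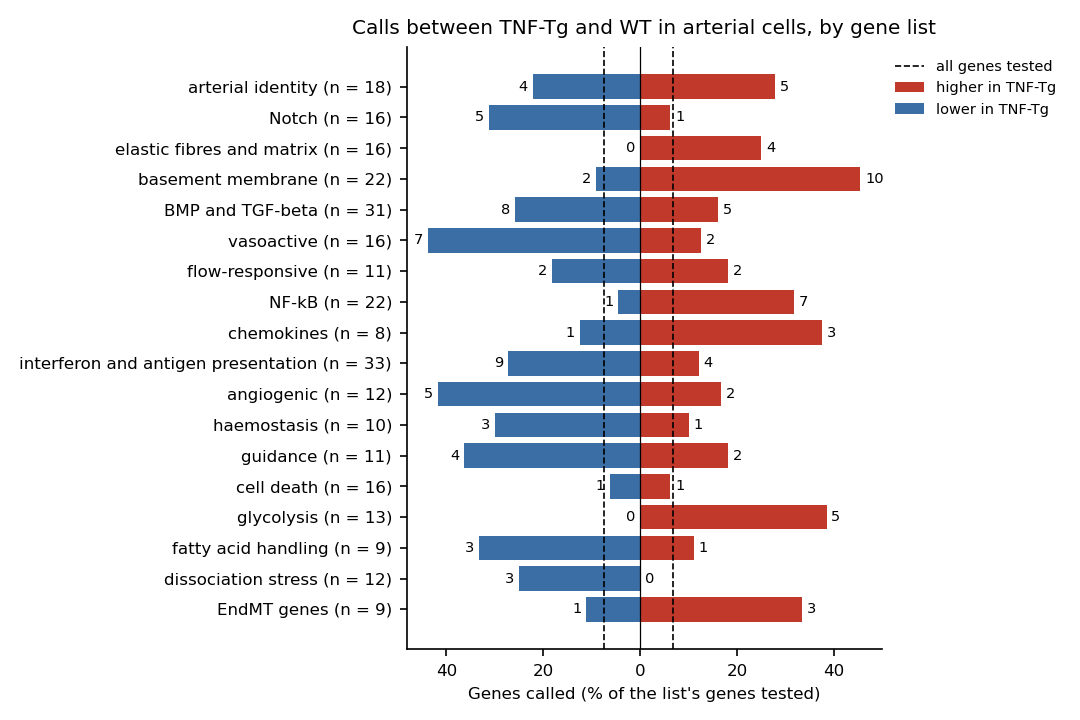
Genes called between TNF-Tg and WT arterial cells as a percentage of the tested genes of each list, higher to the right and lower to the left, with the number called at each bar and dashed lines at 6.77% and 7.48%, the values over all 8329 genes. Basement membrane and NF-kB lists lie mostly to the right, and Notch, vasoactive, and interferon lists mostly to the left.

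Of 16 genes tested that set vascular tone, 7 fell and 2 rose (median -0.78). *Calcrl* and *Ramp2*, which together form the adrenomedullin receptor of endothelium, fell from 2413 ± 176 to 955 ± 306 CPM and from 2016 ± 221 to 914 ± 182 CPM (-1.41 ± 0.18 and -1.21 ± 0.14, edgeR FDR 0.000691 and 0.000397). *Hpgd*, which breaks down prostaglandins, was at 2511, 2022, and 2080.0 CPM in WT against 798, 324, and 213 CPM in TNF-Tg (-2.38 ± 0.38, edgeR FDR 0.00239). Genes of vasoconstrictor processing also fell, the angiotensin-converting enzyme gene *Ace* from 1839.8 ± 106 to 708 ± 36.8 CPM and the endothelin-converting enzyme gene *Ece1* from 751 ± 56.8 to 496 ± 91.2 CPM (edgeR FDR 1.84e-05 and 0.0135), while endothelin 1 (*Edn1*) was at 490.4 ± 99.5 CPM in WT against 643 ± 289 CPM in TNF-Tg (edgeR FDR 0.553). The nitric oxide synthase gene *Nos3* rose from 73.6 ± 6.64 to 119 ± 22.2 CPM and *Ddah1*, whose product removes an inhibitor of it, from 78.7 ± 16.6 to 171 ± 13.1 CPM (edgeR FDR 0.0494 and 0.00275).

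Of 11 flow-responsive genes, 2 rose and 2 fell (median -0.04). The shear-induced factors *Klf2* and *Klf4* overlapped between the genotypes, at 1237 ± 228 CPM in WT against 1008 ± 215 CPM in TNF-Tg and 393 ± 58.5 CPM in WT against 509.9 ± 174 CPM in TNF-Tg (edgeR FDR 0.189 and 0.441). The cation channel gene *Trpv4* was at 7.29, 3.03, and 2.58 CPM in WT against 29.0, 51.5, and 48.7 CPM in TNF-Tg (3.22 ± 0.44, edgeR FDR 0.000978), and the factor gene *Mef2c* rose from 118 ± 14.3 to 202 ± 25.5 CPM (edgeR FDR 0.011). The caveolin gene *Cav1* fell from 1431 ± 73.9 to 711 ± 10.3 CPM and the thrombomodulin gene *Thbd* from 525 ± 26.4 to 187 ± 54.5 CPM (edgeR FDR 8.27e-05 and 0.000429). Of 10 haemostasis genes tested, 1 rose and 3 fell (median -0.15), *Thbd* among the latter: von Willebrand factor (*Vwf*) was at 3265, 2812, and 2867 CPM in WT against 642, 467, and 547 CPM in TNF-Tg (-2.50 ± 0.13, edgeR FDR 6.4e-06), and *Plat*, which encodes a tissue protease that starts clot lysis, fell from 366 ± 9.34 to 226 ± 24.3 CPM (edgeR FDR 0.0028).

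Angiogenic genes numbered 12 tested, with 2 higher and 5 lower (median -0.70). The receptor genes *Tek* (TIE2) and *Flt1* fell from 725 ± 34.3 to 223 ± 49.1 CPM and from 1080.0 ± 48.8 to 554 ± 93.7 CPM (-1.76 ± 0.15 and -1.03 ± 0.14, edgeR FDR 7.64e-05 and 0.000873), and *Kdr*, the main VEGF receptor gene, was at 257 ± 36.6 CPM in WT against 269 ± 62.7 CPM in TNF-Tg (edgeR FDR 0.993). *Vegfa* fell from 595 ± 26.0 to 384 ± 26.6 CPM (edgeR FDR 0.0024). The coreceptor genes of the neuropilin family moved apart, *Nrp1* falling from 669.5 ± 14.7 to 409 ± 21.3 CPM and *Nrp2* rising from 4.73 ± 2.25 to 55.9 ± 11.5 CPM (edgeR FDR 0.000873 and 0.000201), and the surface glycoprotein gene *Cd34* was at 86.0, 77.4, and 64.4 CPM in WT against 367, 616, and 539 CPM in TNF-Tg (2.67 ± 0.21, edgeR FDR 5.21e-05). Of 11 guidance genes 2 rose, *Sema7a* and *Unc5b*, and 4 fell, *Efnb2*, *Sema3g*, *Plxnd1*, and *Slit3* (median -0.22).

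Of 13 glycolysis genes tested 5 rose, and none fell by edgeR, at adjusted or unadjusted p, or by DESeq2 (median 0.45). *Ldha*, which makes lactate from pyruvate, was at 91.8, 92.5, and 94.0 CPM in WT against 199, 361, and 406 CPM in TNF-Tg (1.72 ± 0.25, edgeR FDR 0.00143), and *Eno1*, *Pgk1*, *Pgam1*, and *Gpi1* rose by log2 fold changes of 0.68 to 1.23. Of 9 genes of fatty acid handling, the transporter gene *Cd36*, the lipase gene *Lpl*, and its anchor *Gpihbp1* fell from 1506 ± 155 to 562 ± 227 CPM, from 197 ± 52.8 to 91.5 ± 34.1 CPM, and from 673 ± 31.5 to 261 ± 139 CPM (edgeR FDR 0.00176, 0.017, and 0.0162), and *Fabp5* rose from 21.7 ± 10.5 to 83.8 ± 21.6 CPM (edgeR FDR 0.00284). *Gpihbp1* is also a capillary marker. Of 16 cell death genes, *Bax* rose from 129 ± 19.0 to 203 ± 27.3 CPM and *Fas* fell from 140.3 ± 34.0 to 85.8 ± 23.4 CPM (edgeR FDR 0.0311 and 0.0416), near the share over all genes. Of 12 genes induced by tissue dissociation, *Fos*, *Jun*, and *Egr1* fell (-1.53 ± 0.45, -1.04 ± 0.15, and -2.42 ± 0.55), and none rose by edgeR or DESeq2, with 1 higher at an unadjusted p under 0.05.

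Whether a genotype difference was larger or smaller in arterial than in capillary-side cells of the same libraries was tested with a class by genotype term, which passed for 613 of 13022 genes (4.71%), 333 toward TNF-Tg in arterial cells (2.56%) and 280 away from it (2.15%). The count was 213 without WT at 20 weeks, 294 without TNF-Tg at 14 weeks, 332 without WT at 14 weeks, and 1140 without TNF-Tg at 8 weeks. The term was called higher in 5 of 5 class II genes tested. *Cd74* was at 1055, 842, and 969 CPM in WT against 1289, 1945, and 1447 CPM in TNF-Tg in capillary-side cells, where WT was already high, and the term was 2.76 ± 0.17, edgeR FDR 3.44e-08. *H2-Aa* was at 362, 307, and 335 CPM in WT against 258, 325, and 268 CPM in TNF-Tg in capillary-side cells, with overlapping genotypes, and the term was 3.03 ± 0.24, edgeR FDR 5.97e-07. For *Cd74*, *H2-Aa*, *H2-Ab1*, and *H2-Eb1* every WT arterial value lay below every WT capillary-side and venous-side value, while the TNF-Tg arterial values lay in or above the TNF-Tg capillary-side range but for *Cd74* and *H2-Aa* at 8 weeks. Against venous-side cells 4 of 5 class II genes had a called term, *Cd74* with 2.13 ± 0.26, edgeR FDR 0.00194.

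Arterial genes with a larger rise than in capillary-side cells included *Sox17* (1.53 ± 0.16, edgeR FDR 9.73e-06), *Stmn2* (1.73 ± 0.23), *Trpv4* (2.89 ± 0.41), and *Jag2* (1.31 ± 0.18). *Jag1*, not called in arterial cells alone, had a term of 2.15 ± 0.23, and its capillary-side level fell from 44.7 to 16.7 CPM (edgeR FDR 0.00055). *Sox17* was at 297 CPM in WT against 473 CPM in TNF-Tg in capillary-side cells. The arterial mean was below this in WT, at 114 CPM, and above it in TNF-Tg, at 525 CPM. By library, the TNF-Tg arterial value was below the capillary-side one at 8 weeks and above it at 14 and 20 weeks. *Eln* and *Fbln5*, not called in arterial cells alone, had terms of 1.82 ± 0.43, edgeR FDR 0.0184 and 1.58 ± 0.30, edgeR FDR 0.00403, with capillary-side means of 87.2 CPM in WT against 69.3 CPM in TNF-Tg and 11.5 CPM in WT against 7.14 CPM in TNF-Tg. *Klf2* and *Klf4* had terms of 0.76 ± 0.16 and 1.21 ± 0.16 (edgeR FDR 0.00705 and 0.000186). *Vwf* fell less in arterial cells than in capillary-side cells, where it was at 310.0, 410.5, and 380.1 CPM in WT against 17.3, 7.61, and 7.29 CPM in TNF-Tg (term 2.73 ± 0.20, edgeR FDR 4.11e-07).

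*Bmp2*, *Lama4*, and *Hspg2* rose less in arterial than in capillary-side cells. *Bmp2* was at 4.13, 1.41, and 1.67 CPM in WT against 47.2, 49.3, and 37.6 CPM in TNF-Tg in capillary-side cells (term -2.77 ± 0.52, edgeR FDR 0.00376), *Lama4* at 17 CPM in WT against 140.0 CPM in TNF-Tg (term -2.16 ± 0.22, edgeR FDR 9.06e-06), and *Hspg2* at 9.35 CPM in WT against 318 CPM in TNF-Tg (term -1.36 ± 0.22, edgeR FDR 0.0013). *Vcam1* rose more in capillary-side cells, at 15.4 CPM in WT against 113 CPM in TNF-Tg (term -1.24 ± 0.29, edgeR FDR 0.0171). *Plat* fell in arterial cells but had capillary-side means of 42.1 CPM in WT against 81.4 CPM in TNF-Tg (term -1.63 ± 0.17, edgeR FDR 9.56e-06). *Bambi*, which encodes a decoy BMP receptor, fell in arterial cells by edgeR but not by DESeq2, from 17.9 ± 8.37 to 6.68 ± 1.76 CPM (edgeR FDR 0.0304). Its capillary-side means were 18.2 CPM in WT against 41.4 CPM in TNF-Tg, not called there (edgeR FDR 0.128), with a term of -2.51 ± 0.47, edgeR FDR 0.00367. For *Bmpr2* the term was 0.20 ± 0.13 and for *Acvrl1* 0.29 ± 0.13, neither called (edgeR FDR 0.517 and 0.282), with capillary-side means of 1665 CPM in WT against 618 CPM in TNF-Tg and of 1316 CPM in WT against 516 CPM in TNF-Tg.

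The genes with the largest terms by the naming rule were *Pi16*, *Saa3*, *Ccl21a*, *Tspan8*, *Rgs2*, and *Ptgs1* on the higher side and *Hsd11b2*, *Fads2*, *Cd55*, *Cdh13*, *Atp13a3*, and *Sfrp2* on the lower side. *Pi16*, at 13.1, 1.52, and 9.02 CPM in WT against 161, 349, and 276 CPM in TNF-Tg in arterial cells, was at 14.4, 19.2, and 5.85 CPM in WT against 14.7, 34.6, and 17.6 CPM in TNF-Tg in capillary-side cells (4.23 ± 0.39, edgeR FDR 2.5e-06). The cation transport gene *Atp13a3* was at 1235, 1747, and 1229 CPM in WT against 1757, 1451, and 1042 CPM in TNF-Tg in arterial cells, with overlapping groups, and at 20.0, 23.2, and 17.9 CPM in WT against 169, 387, and 274 CPM in TNF-Tg in capillary-side cells (-3.69 ± 0.28, edgeR FDR 4.16e-07). *Cd55*, which limits complement, was at 353, 422, and 335 CPM in WT against 554, 153, and 152 CPM in TNF-Tg in arterial and at 4.02, 7.82, and 3.69 CPM in WT against 40.1, 43.5, and 47.5 CPM in TNF-Tg in capillary-side cells (-3.72 ± 0.41, edgeR FDR 1.97e-05). The desaturase gene *Fads2*, at 190.0 ± 16.7 CPM in WT against 108 ± 84.6 CPM in TNF-Tg in arterial cells, had capillary-side means of 4.24 CPM in WT against 34.7 CPM in TNF-Tg (-3.99 ± 0.37, edgeR FDR 3.27e-06). For *Atp13a3*, *Cd55*, and *Fads2* the capillary-side cells of TNF-Tg thus stood closer to the arterial level than those of WT. *Saa3* and *Ccl21a* each had 1 UMI in the WT arterial cells. *Saa3* was at 253 CPM in TNF-Tg at 20 weeks and at most 3.43 CPM in the other libraries, and its term was not called without that library (edgeR FDR 0.632, term 2.46).

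**Figure D4:**
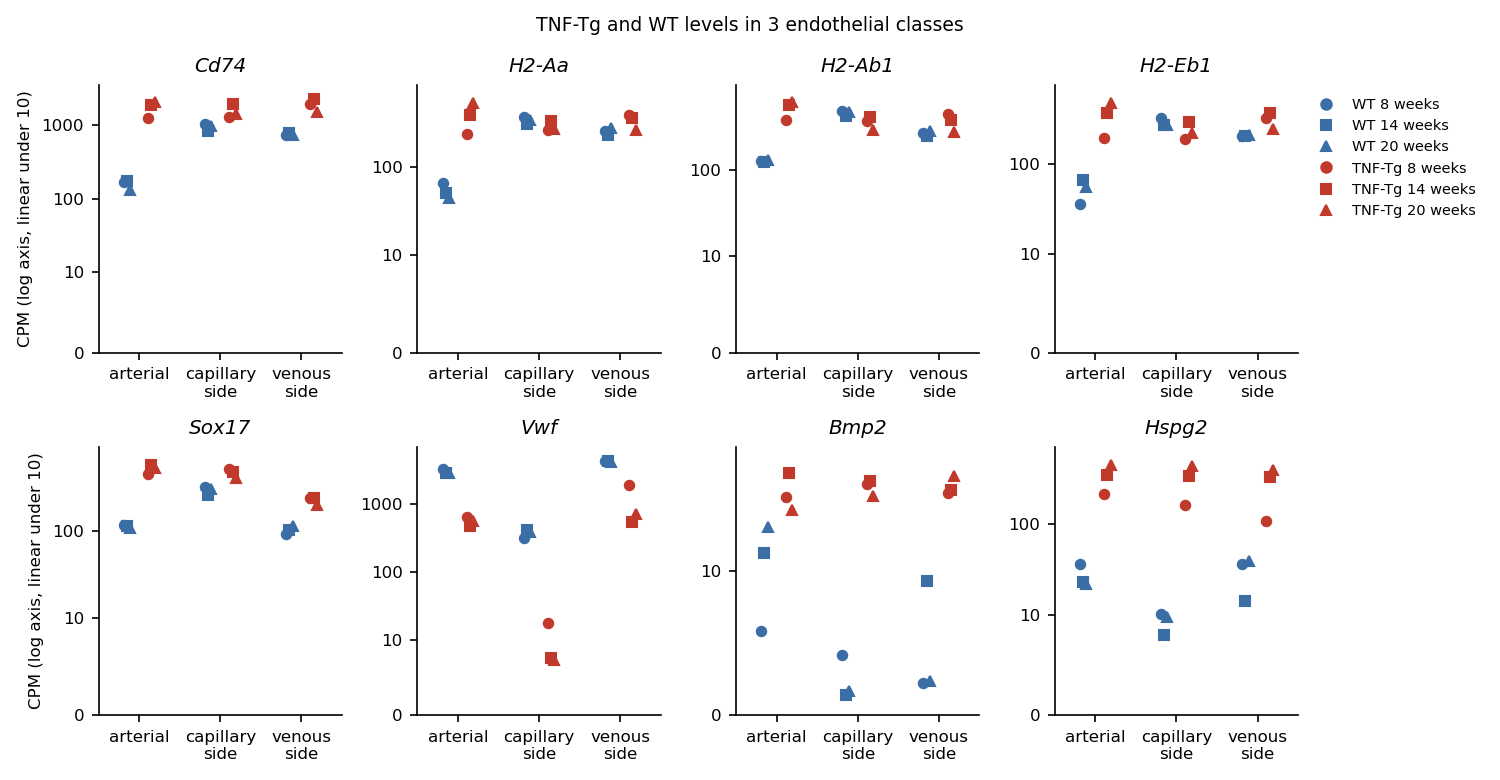
CPM of 8 genes in arterial, capillary-side, and venous-side sums, 1 point per library, on a log axis that is linear under 10, with color for genotype and shape for age. The class II genes differ between the genotypes most in arterial cells, where WT *Cd74* is at 133 to 174 CPM and TNF-Tg *Cd74* at 1252 to 2104 CPM, and *Vwf* and *Bmp2* differ most in capillary-side cells.

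Against the venous side the term was called for 205 of 10091 genes (2.03%), a count that fell to 54, 68, and 56 without WT at 8, 14, and 20 weeks, to 130 and 126 without TNF-Tg at 14 and 20 weeks, and rose to 887 without TNF-Tg at 8 weeks. Genes named by the rule were *Pi16*, *Ccn3*, *Col14a1*, *Pthlh*, *Prss23*, and *Apba1* on the higher side and *Scgb3a1*, *Slc45a4*, *Cd55*, *Cdkn1c*, *Syt15*, and *Map1b* on the lower side. *Prss23*, a protease gene of veins, was at 23.3, 25.8, and 20.6 CPM in WT against 81.7, 50.7, and 91.7 CPM in TNF-Tg in arterial cells and at 1704, 1586, and 1543 CPM in WT against 773, 149, and 209 CPM in TNF-Tg in venous-side cells (4.08 ± 0.49, edgeR FDR 0.00194). *Ccn3*, close to absent from WT arterial cells, was at 7.29, 9.32, and 5.39 CPM in WT against 4.67, 13.6, and 21.1 CPM in TNF-Tg in venous-side cells (6.74 ± 0.95, edgeR FDR 0.0045), and its term was 6.06 without WT at 14 weeks (edgeR FDR 0.0601). *Dll4* and *Efnb2* fell more in arterial cells than on the venous side (-2.01 ± 0.33, edgeR FDR 0.00932 and -1.70 ± 0.16, edgeR FDR 0.000882), with venous-side means of 23.7 CPM in WT against 35.6 CPM in TNF-Tg and 60.5 CPM in WT against 99.8 CPM in TNF-Tg.

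The genotype difference changed along the 3 ages for 17 of 8329 genes (0.204%, against 600 genes at an unadjusted p under 0.05), 9 downward and 8 upward, with a single library at each point. DESeq2 called 18. The 8-week libraries were counted with Cell Ranger 5.0.0 and the 14-week and 20-week libraries with 6.0.1. Between 8 weeks and the later ages, age and version therefore cannot be told apart. At each age both genotypes share a version. The 6 genes named by the rule were lower in TNF-Tg at each age, and by more at later ages. *Olfm2* was at 453, 487, and 399 CPM in WT against 119.5, 5.15, and 1.28 CPM in TNF-Tg (-0.63 ± 0.05 log2 units per week, edgeR FDR 0.000412), and the retinol-binding protein gene *Rbp7* at 510.1, 613, and 601 CPM in WT against 242, 39.5, and 9.61 CPM in TNF-Tg (-0.41 ± 0.03 log2 units per week, edgeR FDR 0.000175). *Hilpda*, which encodes a lipid droplet protein, was at 1116, 1245, and 1177 CPM in WT against 464, 121, and 63.5 CPM in TNF-Tg (-0.25 ± 0.03 log2 units per week, edgeR FDR 0.00497). *Ppp2r2c*, *Alox5ap*, which helps make leukotrienes, and *Casc4* followed the same course, with -0.63 ± 0.07, -0.27 ± 0.04, and -0.20 ± 0.03 log2 units per week. *Alox5ap* and *Casc4* did not pass by DESeq2 (adjusted p 0.237 and 0.0792). In TNF-Tg each of the 6 fell at each step in age, while in WT *Alox5ap* fell from 115 to 69.5 CPM, *Casc4* rose from 232 to 254 CPM, and the other genes had no steady course. *Slc24a4*, *Fads2*, and *Scn7a*, named after their values were seen, also fell along the ages relative to WT.

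The 8 genes that moved upward, named here after their values were seen, were *Ctla2a*, *Trf*, *Mustn1*, *Lgals1*, *Rarres2*, *Nupr1*, *Gsn*, and *Thbs1*. *Thbs1*, the thrombospondin 1 gene, was at 53.9, 3.03, and 3.86 CPM in WT against 3.51, 97.9, and 352 CPM in TNF-Tg (0.88 ± 0.11 log2 units per week, edgeR FDR 0.00893), and gelsolin (*Gsn*) at 182, 24.3, and 19.3 CPM in WT against 11.9, 56.7, and 386 CPM in TNF-Tg (0.74 ± 0.05 log2 units per week, edgeR FDR 0.000175). For each of the 8 genes the 8-week library was the highest of WT and the lowest of TNF-Tg. The fibroblast markers had that order too, at 125, 27.3, and 10.3 CPM in WT against 9.67, 520.3, and 631 CPM in TNF-Tg, and their part in these differences was not tested.

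**Figure D5:**
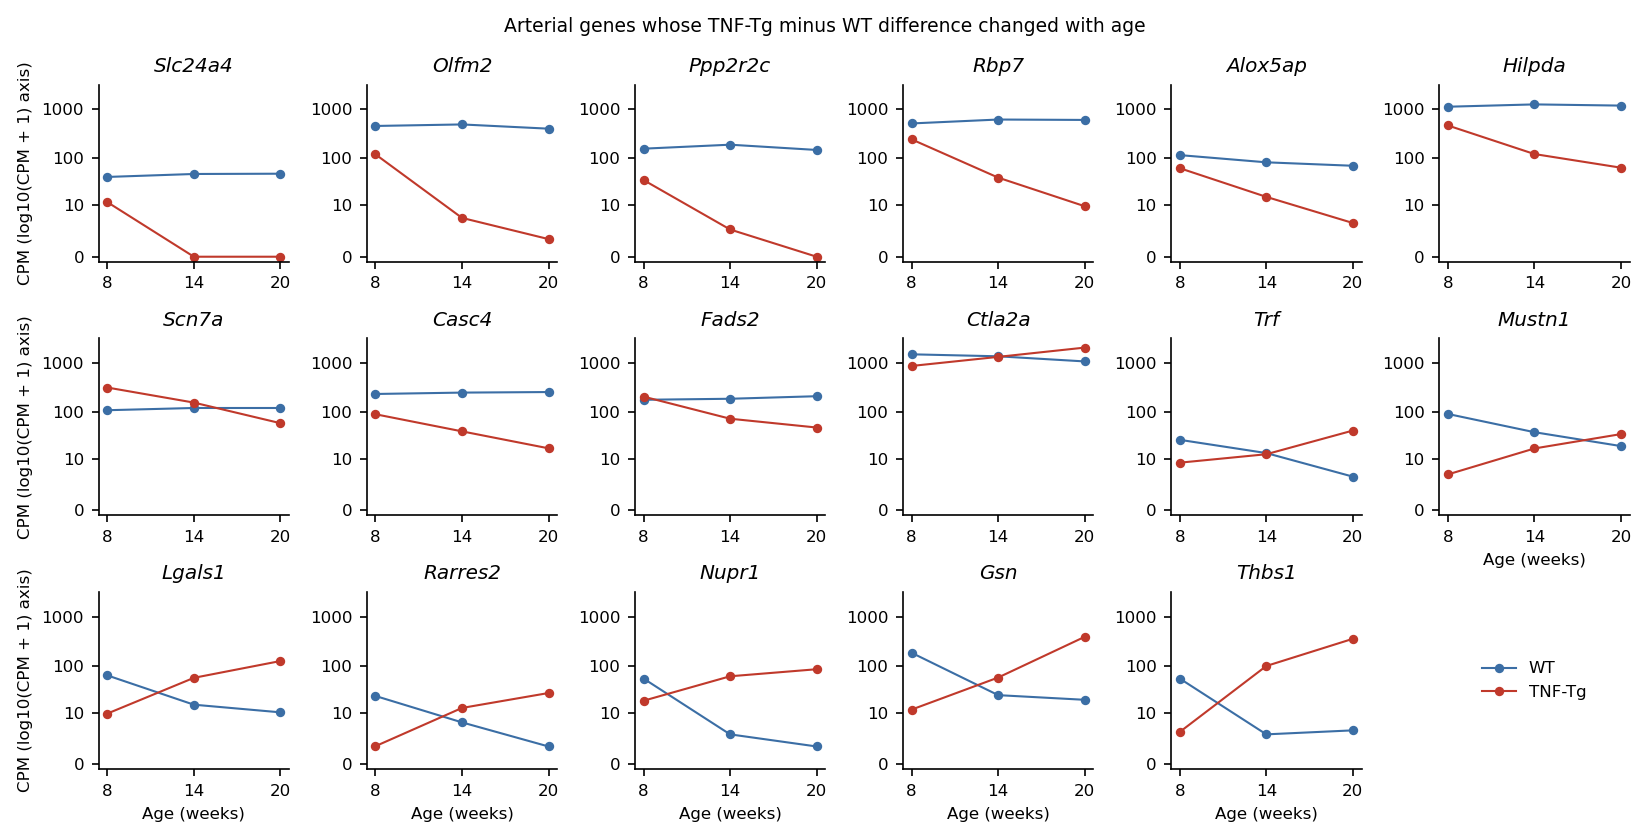
Levels of the 17 genes whose TNF-Tg minus WT difference changed with age, in CPM of the arterial sum on a log10(CPM + 1) axis against age in weeks, 1 library per point. For *Slc24a4*, *Olfm2*, *Ppp2r2c*, *Rbp7*, *Alox5ap*, *Hilpda*, and *Casc4* the TNF-Tg line starts below the WT line and falls away from it, for *Scn7a* and *Fads2* it starts above and ends below, and for the 8 genes from *Ctla2a* to *Thbs1* it starts below and ends above.

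Arterial cells with and without a *Dkk2* UMI were compared within each of the 6 libraries, and 533 of 6813 genes were called (7.82%), 293 higher and 240 lower in the cells with *Dkk2*. The same comparison called 449 of 5181 genes in the 3 WT libraries and 330 of 7800 genes in the 3 TNF-Tg libraries. The cells with *Dkk2* numbered 13, 14, and 18 in WT and 70, 45, and 63 in TNF-Tg at 8, 14, and 20 weeks. By the rule, every cell without *Dkk2* held both *Gja5* and *Bmx*, while cells with it could lack 1 of them. The split is thus not one by *Dkk2* alone, and the part of *Gja5* and *Bmx* in the calls was not tested. The cells with *Dkk2* had median UMIs of 9214, 6444, and 8911 in WT and 12476, 12639, and 12968 in TNF-Tg, against 6484, 6933, and 6061 and 10325, 11803, and 11038 without it. Capillary markers summed to 401 to 1159 CPM with *Dkk2* and 496 to 2784 CPM without, and were lower with *Dkk2* in 6 of 6 libraries, while fibroblast markers, at 6.64 to 637 and 9.92 to 1181 CPM, were lower in 4 of 6. Smooth muscle markers, at 71.5 to 805 and 80.1 to 224 CPM, were higher with *Dkk2* in 4 of 6. The part of these in the calls was not tested. Cells with *Dkk2* had more *Mgp*, at 4504 against 1203 CPM (2.29 ± 0.28, edgeR FDR 3.22e-05), and more *Lox*, the collagen and elastin crosslinking enzyme gene, at 57.8 against 7.93 CPM (2.91 ± 0.34, edgeR FDR 2.1e-05), each as the mean over 6 libraries. The cytoskeletal gene *Pdlim4* was at 88.8 against 10.7 CPM (3.14 ± 0.30, edgeR FDR 3.24e-06), *Fbln5* at 364 against 138 CPM (1.40 ± 0.17, edgeR FDR 2.44e-05), and the chaperone gene *Clu* at 279 against 83.0 CPM (1.73 ± 0.27, edgeR FDR 0.000446). *Sfrp2*, *S100a4*, *Arhgap42*, and *Hmgn3* were the other genes named by the rule as higher. Lower in cells with *Dkk2* were *Hpgd*, at 414 against 1647 CPM (-2.17 ± 0.16, edgeR FDR 6.43e-08), *Gpihbp1*, at 100.2 against 596 CPM, and *Hmcn1*, at 30.2 against 203 CPM, with *Adgrl3*, *Casc4*, and *Car2*. *Cd36* and *Bmpr2* were also lower, at 375 against 1239 CPM and at 558 against 1134 CPM (-0.85 ± 0.13, edgeR FDR 0.000234).

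The narrower comparison, of cells with *Gja5* and *Dkk2* against cells with *Gja5* and *Bmx*, had at least 10 cells of both kinds in TNF-Tg at 8 and 20 weeks alone, and called 65 of 6051 genes (1.07%), against 1 by DESeq2. The annexin gene *Anxa1* was at 33.8 and 336 CPM in the *Dkk2* cells and 4.58 and 50.4 CPM in the *Bmx* cells of these libraries (2.74 ± 0.44, edgeR FDR 3.95e-07). *Bmp2* was at 149 and 38.1 against 16.0 and 11.9 CPM. *Pdlim4*, *Map1b*, *Rbp7*, and *Capg* were also higher, and *Saa3*, *Casc4*, *Thbs1*, and *Sema5a* lower. The hemoglobin genes *Hba-a1* and *Hba-a2*, near-identical copies whose reads may be split, had the largest difference, with 60.8 against 2044 CPM of *Hba-a1* at 8 weeks, in the library where erythroid and platelet markers summed to 4624 CPM.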

How the data were processed

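The authors counted reads with Cell Ranger against mm10 and deposited UMI counts per gene and barcode (GRCm38). The file headers name version 5.0.0 for the 8-week and 6.0.1 for the 14-week and 20-week libraries, while the submitters' processing notes name 5.0.0. Each library was made from pooled lungs with a 10x Chromium 3′ kit. Barcodes were kept with at least 500 genes and at most 10% mitochondrial UMIs, and classes were assigned by the detected genes given above. The members and gene lists were chosen with earlier results of these data known. UMI counts were summed per library and class and tested with edgeR 4.0.16 (quasi-likelihood F test, TMM, filterByExpr, limma 3.58.1, R 4.3.3), with Benjamini-Hochberg adjustment over all genes tested. The 25 genes of the rule were left out of the tests. Standard errors were derived from the log2 fold change and F. The class by genotype term was fitted with library as a block, and age as a linear term in weeks. Genes were named at an FDR under 0.05, at least 50 CPM in the higher group, and 1 direction at all 3 ages, as the 12 (main comparison) or 6 (others) of largest change each way, of 863 that met the rule in the main comparison. The result for 1 of these genes is not reported here. Shares were compared with exact permutation tests. Intervals cover counting error only. Alternatives were DESeq2 1.42.0, other scalings, filters, rules, thinning, and leaving out libraries. Scrublet (scanpy 1.11.5) by its own threshold marked 0 to 3 barcodes per library and so had not worked, and the highest scores were removed at 0.8% per 1000 barcodes in 1 alternative, while the main results keep all barcodes. That alternative took 1, 0, and 4 WT and 3, 2, and 7 TNF-Tg arterial cells at 8, 14, and 20 weeks. It cannot show the part of doublets in the calls. The fits were tested on simulated counts. Tables were handled in Python 3.11.15 with numpy 2.4.6 and scipy 1.17.1, and figures drawn with matplotlib 3.10.9. Gene positions came from GENCODE (GRCm38) for 454 of 454 genes looked up.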

Additional observations from a re-analysis of the deposited data

Results flagged for a closer look

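Genotype differences that were not the same in arterial and capillary-side cells, by the tested class by genotype term, are given here in log2 units, where a positive value is a difference more toward TNF-Tg in arterial cells. The term was 4.23 for *Pi16*, 3.93 for *Saa3*, 3.85 for *Ccl21a*, 3.52 for *Tspan8*, 3.47 for *Rgs2*, and 3.39 for *Ptgs1*. It was -4.29 for *Hsd11b2*, -3.99 for *Fads2*, -3.72 for *Cd55*, -3.71 for *Cdh13*, -3.69 for *Atp13a3*, and -3.59 for *Sfrp2*. *Tspan8*, a tetraspanin gene, was at 29.2, 31.9, and 18.0 CPM in WT against 47.0, 38.6, and 73.1 CPM in TNF-Tg in arterial cells and at 282, 225, and 251 CPM in WT against 97.2, 28.6, and 25.6 CPM in TNF-Tg in capillary-side cells, so that the genotypes lay in opposite order in the classes, without overlap in either. *Rgs2*, a regulator of G protein signaling, was at 13.1, 4.55, and 6.44 CPM in WT against 18.0, 87.6, and 145 CPM in TNF-Tg in arterial cells, and *Ptgs1*, the cyclooxygenase 1 gene, at 1.46, 10.6, and 7.73 CPM in WT against 3.08, 3.43, and 8.97 CPM in TNF-Tg, with capillary-side values of 49.0, 94.2, and 65.1 CPM in WT against 8.53, 3.45, and 2.54 CPM in TNF-Tg. *Saa3* and *Ccl21a* each had 1 UMI in WT arterial cells, so their fitted values depend on the prior count and are no bound. Calls were lost when 1 library was left out for 5 of the 12 genes. The term of *Saa3* was 2.46 (edgeR FDR 0.632) without TNF-Tg at 20 weeks and 6.23 (edgeR FDR 0.683) without WT at 20 weeks, that of *Ccl21a* 9.0 (edgeR FDR 0.0759) without WT at 14 weeks and 3.09 (edgeR FDR 0.15) without WT at 20 weeks, that of *Ptgs1* 3.63 (edgeR FDR 0.0512) without WT at 20 weeks, that of *Hsd11b2* -3.97 (edgeR FDR 0.0515) without TNF-Tg at 14 weeks and -3.75 (edgeR FDR 0.137) without WT at 14 weeks, and that of *Sfrp2* -3.38 to -2.83 (edgeR FDR 0.184 to 0.223) without TNF-Tg at 14 weeks, WT at 8 weeks, or WT at 20 weeks.

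Against venous-side cells the term was 6.79 for *Pi16*, 6.74 for *Ccn3*, 5.13 for *Col14a1*, 4.28 for *Pthlh*, 4.08 for *Prss23*, and 4.02 for *Apba1*. It was -5.34 for *Scgb3a1*, -4.30 for *Slc45a4*, -3.94 for *Cd55*, -3.64 for *Cdkn1c*, -3.46 for *Syt15*, and -3.30 for *Map1b*. *Col14a1*, a fibril-associated collagen gene, was at 2.92, 0, and 1.29 CPM in WT against 3.51, 16.3, and 23.7 CPM in TNF-Tg in arterial cells, with 3 WT UMIs, and moved with the fibroblast markers, whose part was not tested. *Pthlh*, the parathyroid hormone-related protein gene, was at 0, 9.10, and 3.86 CPM in WT against 15.8, 38.6, and 117 CPM in TNF-Tg, and *Scgb3a1*, a secretoglobin best known from airway epithelium, at 8.75, 83.4, and 78.6 CPM in WT against 15.8, 3.43, and 0.641 CPM in TNF-Tg. *Ccn3* had 1 WT UMI in arterial cells, so that its fitted value, like that of *Col14a1*, depends on the prior count. *Pthlh*, *Prss23*, and *Syt15* kept their call whichever library was left out, and the other 9 genes lost it without at least 1 library. The term was 3.56 (edgeR FDR 0.329) without WT at 8 weeks for *Pi16*, 6.06 (edgeR FDR 0.0601) without WT at 14 weeks for *Ccn3*, and -4.23 (edgeR FDR 0.0528) without WT at 8 weeks and -3.92 (edgeR FDR 0.0627) without WT at 20 weeks for *Slc45a4*. Without each WT library in turn it was 4.53 to 5.56 (edgeR FDR 0.0603 to 0.124) for *Col14a1*, -4.20 to -3.80 (edgeR FDR 0.0828 to 0.11) for *Cd55*, and -4.09 to -3.23 (edgeR FDR 0.09 to 0.137) for *Cdkn1c*. For *Apba1* it was 3.46 to 4.6 (edgeR FDR 0.0602 to 0.271) with a WT library or TNF-Tg at 20 weeks left out, for *Scgb3a1* -5.05 to -4.23 (edgeR FDR 0.0593 to 0.231) without TNF-Tg at 8 weeks or WT at 14 or 20 weeks, and for *Map1b* -3.41 to -2.69 (edgeR FDR 0.0909 to 0.211) with a WT library or TNF-Tg at 14 or 20 weeks left out.

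The genotype difference changed with age, by the tested genotype by age term in log2 units per week, by -0.63 for *Olfm2*, -0.63 for *Ppp2r2c*, -0.41 for *Rbp7*, -0.27 for *Alox5ap*, -0.25 for *Hilpda*, and -0.20 for *Casc4*. *Ppp2r2c* had no UMI in TNF-Tg at 20 weeks, so that its fitted slope depends on the prior count.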

How the results depend on the processing

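Of 738 values of named genes recomputed under the alternatives, 659 kept direction and side of the threshold, 77 kept direction and were no longer called, and 2 changed direction: with barcodes thinned to 2000 UMIs, the term against capillary-side cells was -0.17 for *Ccl21a* and the term against venous-side cells 1.65 for *Slc45a4*, neither called. Of the 1187 genes called between the genotypes, those that could be tested kept their direction under DESeq2 (879 called), RLE scaling (1176), total UMIs (1227), no filter on low counts (1709), stricter barcode limits (1101), equal library sums (1046), doublets removed (1193), no venous drop (1167), cells with fibroblast or immune markers removed (1234), and each library left out (588 to 1676). For the 1178 called genes whose groups did not overlap, the direction with 1 library left out was all but given. In cells with *Gja5* and *Bmx* alone, an alternative chosen after seeing the data, 771 of 6973 genes were called. Some called genes changed direction when the number of arterial genes asked for, or the depth of the barcodes, was altered. With all 3 arterial genes required, 10, 7, and 8 WT cells and 34, 15, and 27 TNF-Tg cells were left at 8, 14, and 20 weeks. Of 3091 genes tested in these cells 139 were called, and 34 of 708 earlier calls changed direction. The part of the small cell numbers in this was not tested. In barcodes with 1 arterial gene, also chosen after seeing the data, 1888 of 10538 were called and 15 of 1177 changed direction. With barcodes thinned to 2000 UMIs 113 of 1179 genes were called, 107 of them among the 382 earlier calls that could be tested, of which 17 changed direction, and most genes fell under the filter. The class by genotype count against capillary-side cells was 920 without the filter, 85 after thinning, and 213 to 1140 without 1 library, against DESeq2 with 528 and doublets removed with 610. Against venous-side cells it was 656, 31, and 54 to 887, with 163 by DESeq2 and 241 with doublets removed. After thinning, the term for *Pi16* was 1.42 against capillary-side and 0.71 against venous-side cells, neither called. The count of genes changing with age was 207 without the filter and 18 by DESeq2. The comparison of *Dkk2* with *Bmx* cells called 65 genes, 69 without the filter and 1 by DESeq2, and the wider split by *Dkk2* detection, added after seeing the data, 533 in all libraries, 449 in WT, and 330 in TNF-Tg. Thinning and leaving out a library were not run for either of these comparisons. The narrower one held 2 libraries, so that leaving 1 out would leave no residual degrees of freedom. After thinning, 7, 7, and 8 arterial cells with *Dkk2* were left in WT at 8, 14, and 20 weeks. The arterial share differed by 0.363 to 1.05 points under the rule, filter, and doublet alternatives, by 0.560 to 1.23 points without 1 library, by 0.0162 points after thinning to 2000 UMIs, and by -0.00219 points after thinning to 3000. The cause of these differences between settings was not tested. Libraries of the same age did not deviate together (correlations of -0.084, -0.039, and -0.0066), so that age pairs no libraries, and with age as a block 1213 genes were called, 1085 of them among the 1187. Depth limits the rare genes: the smallest arterial sum held 659259 UMIs.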
